A study of Mus musculus with 6 samples.

Results

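The genes described here are 36 cell cycle and proliferation genes, chosen by symbol from the 54532 rows of a count table of mouse heart RNA. They are Mcm2, Mcm3, Mcm4, Mcm5, Mcm6, Mcm7, Pcna, Rrm1, Rrm2 and Tyms, which act in S phase, and 26 genes of mitosis: Foxm1, Ccna2, Ccnb1, Ccnb2, Cdk1, Plk1, Aurka, Bub1, Bub1b, Cdc20, Ube2c, Aurkb, Birc5, Cdca8, Mki67, Top2a, Cenpe, Cenpf, Tpx2, Kif11, Nusap1, Hmmr, Prc1, Kif20a, Kif23 and Anln. Each symbol matched 1 Ensembl row. The study compared hearts of ACKR4 knockout mice (ACKR4_KO, 3 libraries), in which a scavenging chemokine receptor is lost, with hearts of wild-type mice (WT, 3 libraries), all taken at day 14 after myocardial infarction (MI). The strain label is C57BL/6 in both groups, and the age label is 8 to 10 weeks. Neither the knockout allele nor the part of the heart sampled is given in the sources used here. The labels number mouse replicates 1 to 3 in each genotype and do not say whether animals were pooled, so the p-values measure the spread between these samples.

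The mitotic genes and the S phase genes mark consecutive parts of the cell cycle. In S phase the MCM2 to MCM7 helicase unwinds DNA, PCNA holds the polymerases on it, and ribonucleotide reductase and thymidylate synthase supply nucleotides. In G2 and mitosis cyclin A2, cyclin B, CDK1, PLK1 and the aurora kinases drive entry, kinesins and spindle proteins build the spindle, the checkpoint proteins hold anaphase back, and CDC20 and UBE2C serve the anaphase promoting complex that ends mitosis. Transcription of many mitotic genes is timed through promoter elements called CHR (cell cycle genes homology region), which the MuvB complex binds, together with CCAAT boxes bound by NF-Y, whereas many S phase genes have sites for E2F factors. Adult cardiomyocytes rarely divide. After infarction the fibroblasts, endothelial cells and leukocytes of the wound proliferate in the early phase, and proliferation then wanes as the scar matures.

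Promoters of 8 members are shown, since they show which promoter letters the S phase and mitotic members hold. Each runs 5′ to 3′ on the strand of the gene, from 250 bases before to 50 bases after the RefSeq start (build GRCm38.p6), and capitals mark every match, on either strand, to the CHR letters (TTTGAA or TTCGAA), to the CCAAT box (CCAAT) or to the E2F letters (TTTGGCGC, TTTCCCGC, TTTCGCGC or TTTGCCGC). Cdc20, Ccnb2, Bub1b and Top2a are mitotic, and Mcm5, Mcm6, Rrm1 and Tyms act in S phase. Top2a was added after the matches were seen.
Cdc20 (chr4:118437294-118437593, minus strand): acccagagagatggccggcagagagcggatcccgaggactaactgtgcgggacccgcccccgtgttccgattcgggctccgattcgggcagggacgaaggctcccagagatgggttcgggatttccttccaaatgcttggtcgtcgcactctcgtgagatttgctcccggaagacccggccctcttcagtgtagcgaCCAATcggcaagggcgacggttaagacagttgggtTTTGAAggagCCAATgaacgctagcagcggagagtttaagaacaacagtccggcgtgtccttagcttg
Ccnb2 (chr9:70421505-70421804, minus strand): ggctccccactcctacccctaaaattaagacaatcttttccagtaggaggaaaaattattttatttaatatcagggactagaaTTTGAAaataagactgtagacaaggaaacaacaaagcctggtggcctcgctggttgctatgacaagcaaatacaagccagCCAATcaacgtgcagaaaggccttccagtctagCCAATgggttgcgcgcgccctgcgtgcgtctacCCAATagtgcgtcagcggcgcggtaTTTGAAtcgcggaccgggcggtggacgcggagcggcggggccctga
Bub1b (chr2:118597961-118598260, plus strand): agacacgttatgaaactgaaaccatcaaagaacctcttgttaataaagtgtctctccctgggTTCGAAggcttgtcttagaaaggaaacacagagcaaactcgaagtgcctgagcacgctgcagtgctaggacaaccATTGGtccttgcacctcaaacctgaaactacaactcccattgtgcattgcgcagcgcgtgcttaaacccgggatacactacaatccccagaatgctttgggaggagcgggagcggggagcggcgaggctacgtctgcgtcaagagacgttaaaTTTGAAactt
Top2a (chr11:99024140-99024439, minus strand): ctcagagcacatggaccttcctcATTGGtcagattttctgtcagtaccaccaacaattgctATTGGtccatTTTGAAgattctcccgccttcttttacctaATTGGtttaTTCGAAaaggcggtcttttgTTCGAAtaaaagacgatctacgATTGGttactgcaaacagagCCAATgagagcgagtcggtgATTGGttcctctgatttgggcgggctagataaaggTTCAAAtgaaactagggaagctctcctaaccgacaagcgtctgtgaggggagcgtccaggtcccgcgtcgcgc
Mcm5 (chr8:75109259-75109558, plus strand): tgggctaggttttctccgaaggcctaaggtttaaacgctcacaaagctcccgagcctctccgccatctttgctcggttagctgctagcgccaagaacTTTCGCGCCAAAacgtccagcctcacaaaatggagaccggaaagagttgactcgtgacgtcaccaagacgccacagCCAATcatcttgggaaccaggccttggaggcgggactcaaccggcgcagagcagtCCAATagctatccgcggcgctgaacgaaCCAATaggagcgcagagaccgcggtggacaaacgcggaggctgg
Mcm6 (chr1:128359656-128359955, minus strand): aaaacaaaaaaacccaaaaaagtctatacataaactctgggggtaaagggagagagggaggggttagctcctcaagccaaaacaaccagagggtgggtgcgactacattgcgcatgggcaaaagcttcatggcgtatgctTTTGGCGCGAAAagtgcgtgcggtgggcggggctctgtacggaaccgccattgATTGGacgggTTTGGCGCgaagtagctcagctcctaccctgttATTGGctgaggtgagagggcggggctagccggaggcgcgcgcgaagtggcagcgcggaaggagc
Rrm1 (chr7:102441445-102441744, plus strand): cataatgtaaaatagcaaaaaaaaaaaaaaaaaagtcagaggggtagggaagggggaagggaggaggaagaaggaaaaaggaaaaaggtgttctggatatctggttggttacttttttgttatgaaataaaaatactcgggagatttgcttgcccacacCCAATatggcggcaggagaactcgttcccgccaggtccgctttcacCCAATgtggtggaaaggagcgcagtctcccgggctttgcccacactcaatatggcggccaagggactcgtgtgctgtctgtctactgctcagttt
Tyms (chr5:30073576-30073875, minus strand): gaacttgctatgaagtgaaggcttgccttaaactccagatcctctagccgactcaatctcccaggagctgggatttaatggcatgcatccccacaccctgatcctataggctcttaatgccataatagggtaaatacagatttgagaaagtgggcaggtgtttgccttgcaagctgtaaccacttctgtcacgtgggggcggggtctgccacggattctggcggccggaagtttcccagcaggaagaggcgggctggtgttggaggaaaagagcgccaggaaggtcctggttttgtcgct

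The Top2a promoter held 4 matches to CHR and 6 to CCAAT, and the Mcm5 promoter held 2 overlapping E2F matches in a single run, with 3 CCAAT boxes and no CHR match. The Tyms promoter held none of the letters. The promoter table had entries for 30 of the 36 members, 32 promoters in all; Aurkb, Ccna2, Foxm1, Kif20a, Mcm4 and Tpx2 had none. CHR letters stood in 18 of 22 mitotic promoters (81.8%) and in 2 of 10 S phase promoters (20.0%), beside 19.2% of all 32851 promoters of that length. CCAAT stood in 19 of 22 mitotic promoters (86.4%) and 9 of 10 S phase promoters (90.0%), against 37.4% of all promoters. The E2F letters stood in 1 mitotic promoter (4.55%), that of Cdk1, and in 4 S phase promoters (40.0%), those of Mcm3, Mcm5, Mcm6 and Mcm7, against 2.26% of all. CHR and CCAAT occurred in the same promoter in 17 of 22 mitotic entries (77.3%), including Cdc20, Ccnb2, Bub1b and Top2a, and in 2 of 10 S phase entries (20.0%), against 7.52% of all promoters. In 2 member promoters, those of Cdca8 and Mcm7, matches of different motifs shared a base. A match is a description of the letters and does not show binding in these hearts.

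Total counts lay between 10971206 and 12238996 reads in the ACKR4_KO libraries and between 9422462 and 13910358 reads in the WT libraries. Ackr4, the targeted gene, had 4, 1 and 12 reads in ACKR4_KO replicates 1, 2 and 3 and 165, 151 and 169 reads in the WT replicates, in keeping with the labels of all 6 libraries. Its log2 fold change was -4.70 ± 0.48 (adjusted p = 0.099 by edgeR and 3.00e-19 by DESeq2). The 8 cardiomyocyte markers summed to between 35000 and 49858 CPM (read counts scaled to library size) in ACKR4_KO and between 27365 and 35524 CPM in WT. The spread between libraries was unequal, with a biological coefficient of variation over all genes of 26.7% within ACKR4_KO and 11.7% within WT. For the cell cycle genes ACKR4_KO replicate 3 stood apart from the other 5 libraries, so values are given per library and fold changes with and without it.

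The comparison addresses how loss of ACKR4 bears on cell cycle transcripts after infarction. Summed mitotic transcripts were highest in 1 knockout library. In the other 2 they were below the lowest WT library, by less than the range within WT. The WT libraries lay within 1.26 times of each other. The 26 mitotic members summed to 50.3, 46.5 and 272 CPM in ACKR4_KO replicates 1, 2 and 3, against 59.3, 73.9 and 74.7 CPM in WT replicates 1, 2 and 3. ACKR4_KO replicate 3 thus held 3.93 times the WT mean, 5.41 times ACKR4_KO replicate 1 and 5.85 times ACKR4_KO replicate 2. The 10 S phase members followed the same order of knockout libraries over a narrower range, with 147.8, 130.4 and 247 CPM in ACKR4_KO and 153.7, 166.0 and 173 CPM in WT. The group means were 123 ± 129.3 CPM in ACKR4_KO and 69.3 ± 8.66 CPM in WT for the mitotic members, and 175.0 ± 62.8 CPM and 164 ± 9.73 CPM for the S phase members in the same order of groups (mean ± SD, n = 3 each). The spread within ACKR4_KO was therefore larger than the difference between the group means in both phases.

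The excess of ACKR4_KO replicate 3 was larger than counting error. The mitotic sum rested on 623, 454 and 3119 reads in ACKR4_KO and 762, 718 and 1084 reads in WT. As unscaled CPM it was 274 in ACKR4_KO replicate 3, with an exact 95% binomial interval of 264 to 284, against 41.4 (37.7 to 45.4) in ACKR4_KO replicate 2 and 77.9 (73.4 to 82.7) in WT replicate 3, the highest of the WT libraries. These intervals cover counting error only. The balance of the phases moved as well: the mitotic sum was 0.340, 0.357 and 1.10 times the S phase sum in ACKR4_KO replicates 1, 2 and 3, and 0.386, 0.445 and 0.432 times in the WT replicates. The mitotic share was thus lower than in every WT library in 2 knockout libraries and higher than in every WT library in the third. In bulk tissue fewer cycling cells and less RNA per cycling cell cannot be told apart.

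**Figure D1:**
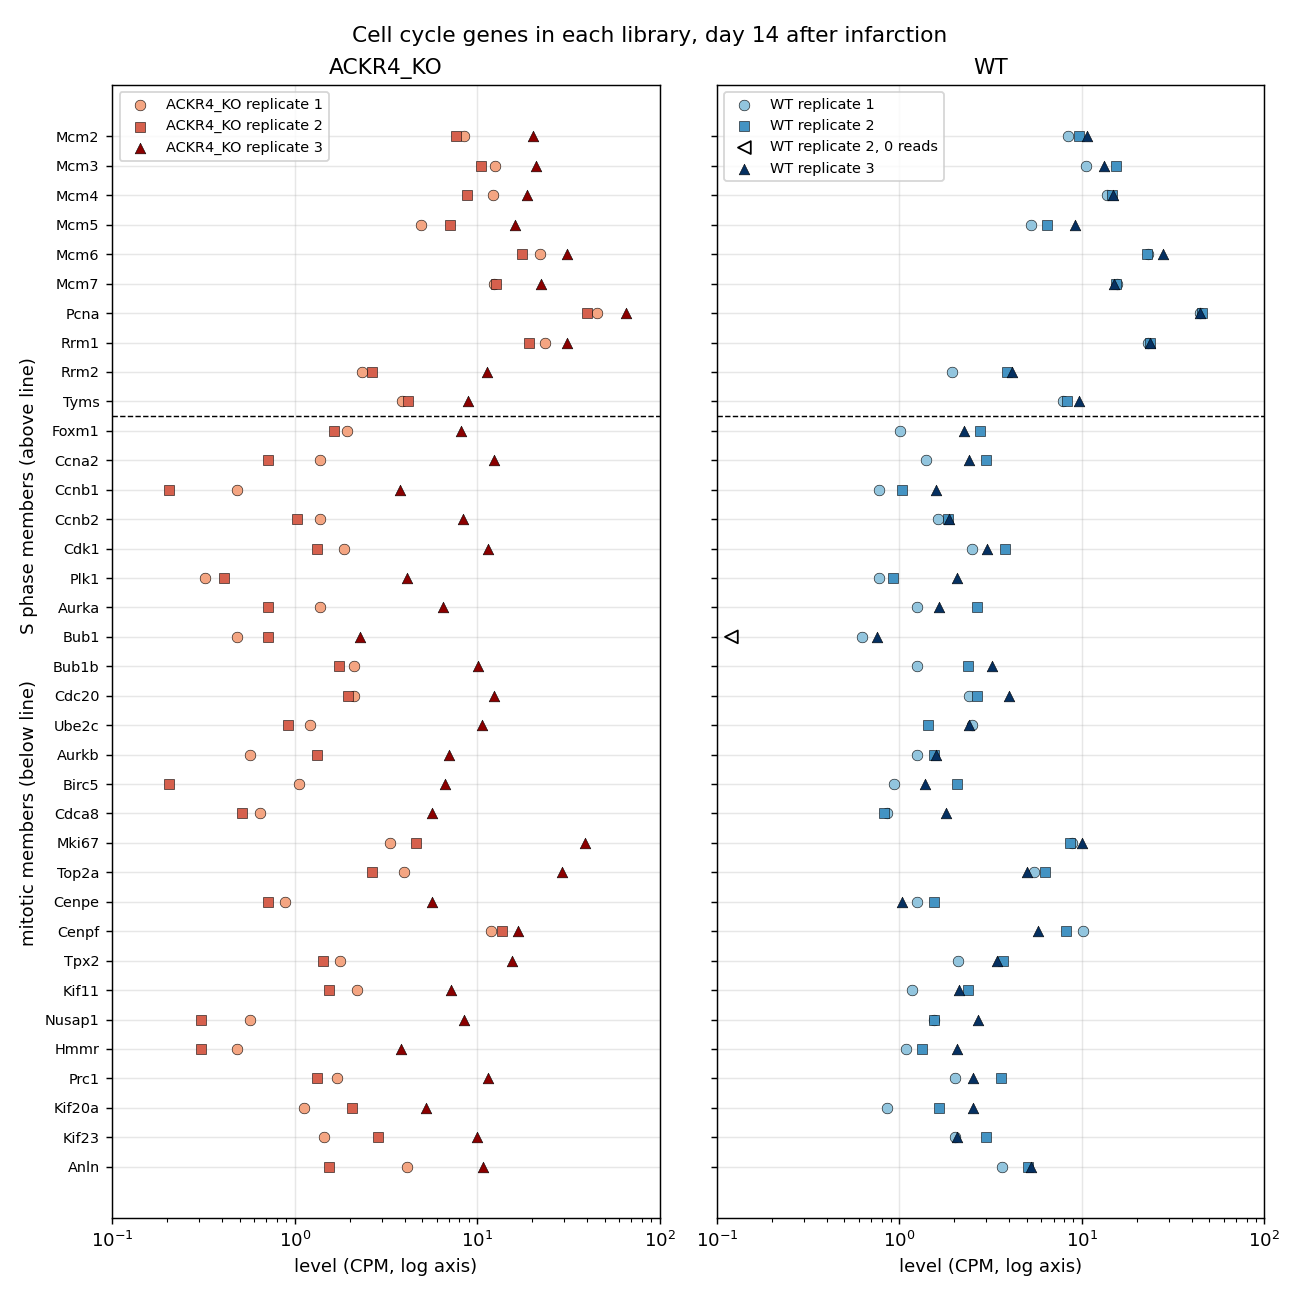
CPM of each of the 36 members (log axis) in the ACKR4_KO libraries (left) and the WT libraries (right), 1 point per library, with 0 reads drawn as an open triangle at the left edge. ACKR4_KO replicate 3 is the highest library for 35 members, and the WT points lie closer together than the ACKR4_KO points for every mitotic member apart from Bub1 and Cenpf.

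No member passed the test. Of the 36 members 35 had enough reads to be tested, all but Bub1, and 0 of them had an adjusted p of 0.05 or less by edgeR's quasi-likelihood test, as did 0 of the 14406 genes tested (0.0%). Their adjusted p lay between 0.606 and 0.992. At an unadjusted p under 0.05 there was 1 member, Cenpf, beside 1073 of all genes (7.45%; 3.81% higher and 3.64% lower in ACKR4_KO). DESeq2 called 39 genes of the table and limma-voom 0, and neither called a member, though DESeq2 gave Mki67 no adjusted p. The groups did not overlap in 1 of 35 members, again Cenpf, where ACKR4_KO was higher. They did not overlap in 14.2% of all genes tested, with ACKR4_KO higher in 6.53% and lower in 7.63%. The fitted log2 fold change was above 0 in 32 of 35 members (52.0% of all genes), with a median of 0.12 over the S phase members and 0.88 over the mitotic members tested, beside a median of 0.012 over all genes. This direction rested on ACKR4_KO replicate 3. Without it 33 of 35 members were below 0, with medians of -0.27 in S phase and -0.77 in mitosis, while 51.1% of all genes tested were above 0. In all, 30 of 35 members turned from above to below 0, as did 8.82% of all genes. Without replicate 3 the unadjusted p was under 0.05 in 11 members, 10 of them lower and Cenpf higher in ACKR4_KO, beside 12.5% of all genes (6.35% lower in ACKR4_KO). The smallest adjusted p of a member was 0.165 in that fit, where 1 gene of the table passed the threshold (0.00678%). Replicate 3 was singled out for its high values in these same members, and leaving it out lowers their fold changes. The counts and p-values without it are therefore a description, and the members are not independent of each other.

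**Figure D2:**
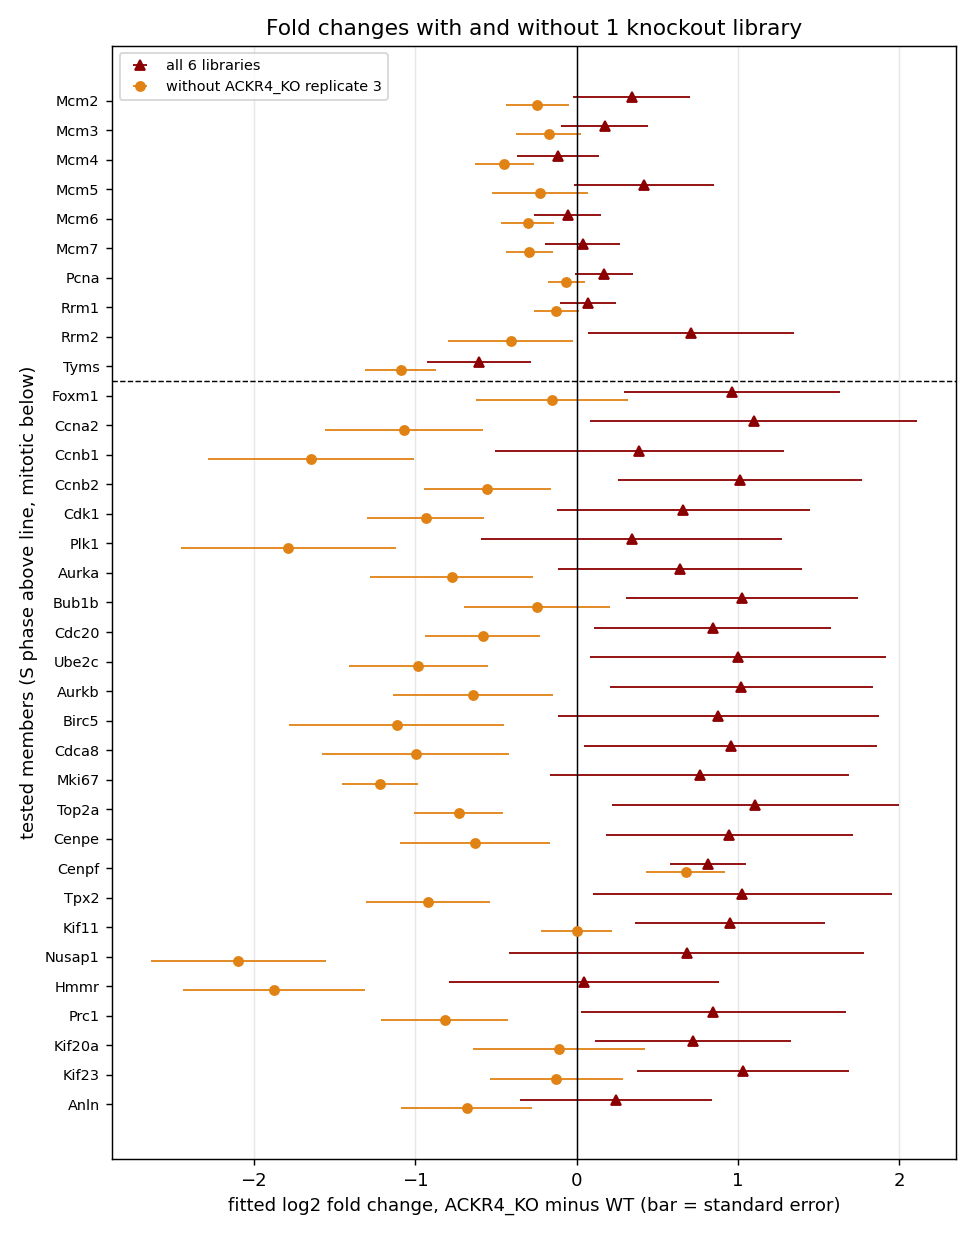
Fitted log2 fold change (ACKR4_KO minus WT) of the 35 tested members with all 6 libraries (triangles) and without ACKR4_KO replicate 3 (circles), bars showing the standard error. The mitotic members lie above 0 with all libraries and, apart from Cenpf and Kif11, below 0 without that library.

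ACKR4_KO replicate 3 was the highest of the 6 libraries in 35 of 36 members, a position it held in 23.8% of all genes tested. In 24 members, 23 of them mitotic, it had at least 2 times the level of the next library, which was the case for 1.28% of all genes. Its level over the WT mean had a median of 4.24 over the mitotic members (range 2.08 to 5.43) and of 1.46 over the S phase members (range 1.03 to 3.38). For ACKR4_KO replicates 1 and 2 the medians over the WT mean were 0.647 and 0.483 for mitotic members and 0.864 and 0.800 for S phase members, whereas over all genes tested each knockout library had a median close to 1 (0.992, 0.991 and 0.994). ACKR4_KO replicate 1 was below every WT library in 22 of 36 members, beside 30.1% of all genes tested, and replicate 2 in 26, beside 36%. In 18 members, 15 of them mitotic, replicates 1 and 2 were below and replicate 3 above all WT libraries, an arrangement found in 5.19% of all genes.

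**Figure D3:**
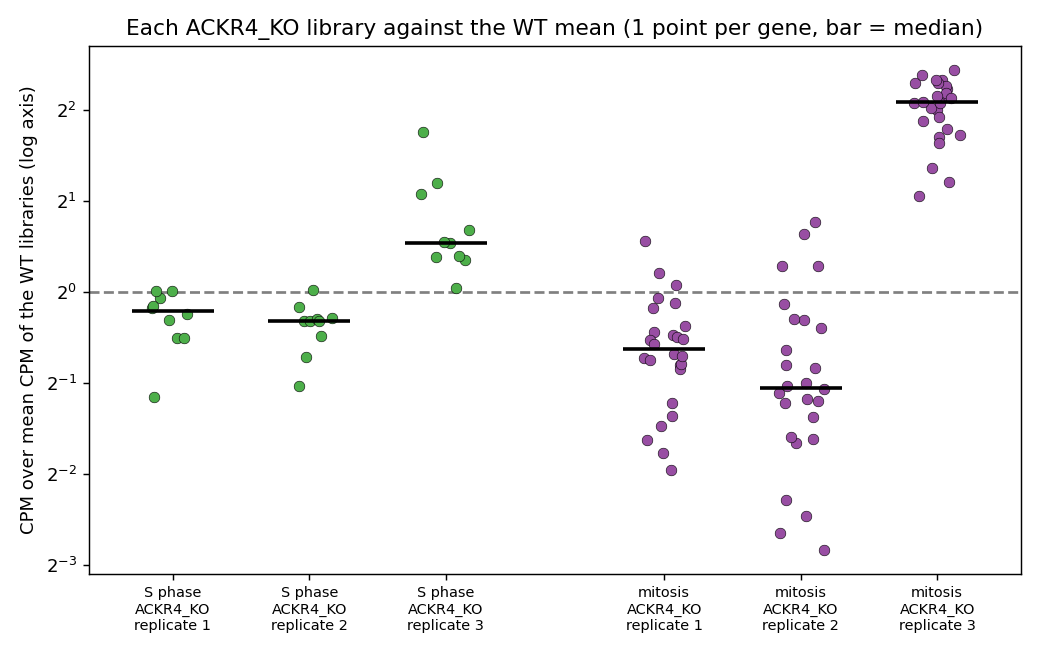
Level of each member in each ACKR4_KO library divided by its mean over the WT libraries (log axis), S phase members on the left and mitotic members on the right, with the median as a bar. In replicates 1 and 2 the medians are below 1 in both phases, and in replicate 3 they are 1.46 for S phase and 4.24 for mitosis.

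The S phase genes, which varied less between libraries than the mitotic genes, are described first. The values of a gene are given in the order of replicates 1, 2 and 3 of each genotype. Pcna, the sliding clamp, had 45.4, 40.2 and 65.7 CPM in ACKR4_KO against 44.3, 45.7 and 44.6 CPM in WT. The WT libraries were nearly equal and replicate 3 alone exceeded them, which gave a log2 fold change of 0.17 ± 0.18 (standard error; adjusted p = 0.825 by edgeR). Per kilobase of exon Pcna had the highest level of all members, at 21.0 CPM in ACKR4_KO and 18.7 CPM in WT, while the other S phase members averaged between 0.930 and 5.07 CPM per kilobase in ACKR4_KO and between 1.20 and 5.26 CPM per kilobase in WT. Mcm6, the helicase subunit with the highest level per kilobase, had 22.0, 17.6 and 31.3 CPM in ACKR4_KO against 23.0, 22.6 and 28.0 CPM in WT and a log2 fold change of -0.054 ± 0.21. For Mcm5 the values were 4.93, 7.07 and 16.1 CPM in ACKR4_KO against 5.29, 6.48 and 9.16 CPM in WT, so that replicate 3 reached 2.30 times the WT mean. Its fold change, 0.42 ± 0.44, was smaller than its standard error. Mcm2, Mcm3, Mcm4 and Mcm7, the other helicase subunits, had log2 fold changes between -0.12 and 0.34, and each was highest in replicate 3.

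The genes of nucleotide supply differed among themselves. Rrm1, the large subunit of ribonucleotide reductase, had 23.6, 19.2 and 31.0 CPM in ACKR4_KO against 23.0, 23.8 and 23.6 CPM in WT, a range of 1.62 times within ACKR4_KO and of 1.03 times within WT. Rrm2, the small subunit whose level rises in S phase, had 2.34, 2.66 and 11.3 CPM in ACKR4_KO against 1.95, 3.91 and 4.13 CPM in WT, and with 3.38 times the WT mean in replicate 3 it was closer to the mitotic members than Rrm1 was. Tyms, thymidylate synthase, was the only member that was not highest in ACKR4_KO replicate 3. It had 3.88, 4.20 and 8.90 CPM in ACKR4_KO against 7.86, 8.33 and 9.64 CPM in WT, so that replicates 1 and 2 were below all WT libraries and replicate 3 lay among them. Its log2 fold change of -0.60 ± 0.32 was the lowest of the members (adjusted p = 0.691 by edgeR), and without replicate 3 it was -1.09 (adjusted p = 0.178).

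Genes that drive entry into mitosis were low in all libraries except ACKR4_KO replicate 3. Foxm1, a forkhead transcription factor of G2 genes, had 1.94, 1.64 and 8.12 CPM in ACKR4_KO against 1.01, 2.78 and 2.27 CPM in WT, and its log2 fold change was 0.96 ± 0.67 (adjusted p = 0.742 by edgeR). Ccnb2, a B-type cyclin that activates CDK1, had 1.37, 1.02 and 8.38 CPM in ACKR4_KO against 1.63, 1.85 and 1.86 CPM in WT. In WT it varied by only 1.14 times, and the knockout libraries spanned 8.18 times. The cyclin A gene Ccna2 had 1.37, 0.717 and 12.3 CPM in ACKR4_KO against 1.40, 2.98 and 2.41 CPM in WT, the highest ratio of replicate 3 to the WT mean among all members (5.43 times). Ccnb1, the other mitotic cyclin B gene, had 6, 2 and 43 reads in ACKR4_KO and 10, 10 and 23 reads in WT, so the levels of the first 2 knockout libraries rest on very few reads. Cdk1, the kinase of the cyclins, Plk1, a kinase of mitotic entry, and Aurka, the aurora kinase of the spindle poles, reached 3.68, 3.26 and 3.48 times the WT mean in replicate 3, and in replicates 1 and 2 they lay between 0.257 and 0.739 times. The adjusted p of these 7 genes was between 0.742 and 0.938 by edgeR.

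The genes of the spindle checkpoint and its targets were likewise highest in ACKR4_KO replicate 3. Cdc20, the activator of the anaphase promoting complex, had 2.10, 1.95 and 12.3 CPM in ACKR4_KO against 2.41, 2.67 and 3.99 CPM in WT, and per kilobase it was the most abundant mitotic member, at 2.92 CPM in ACKR4_KO and 1.62 CPM in WT. Bub1b, a checkpoint protein that restrains CDC20, had 2.10, 1.74 and 10.1 CPM in ACKR4_KO against 1.24, 2.37 and 3.24 CPM in WT. Its replicates 1 and 2 lay within the WT range, and only replicate 3 was outside it, for a log2 fold change of 1.03 ± 0.72. Ube2c, the ubiquitin-conjugating enzyme of the complex, was at 5.04 times the WT mean in replicate 3 and at 0.573 and 0.436 times in replicates 1 and 2. Its exons share 592 bases with Tnnc2 on the opposite strand, a gene of fast skeletal muscle, and the strand setting of the counting is not given. Bub1, the checkpoint kinase, was not tested for want of reads and had 6, 7 and 26 reads in ACKR4_KO and 8, 0 and 11 reads in WT. In the chromosomal passenger complex, which corrects attachments to the spindle, the kinase gene Aurkb had 0.565, 1.33 and 6.98 CPM in ACKR4_KO against 1.24, 1.54 and 1.58 CPM in WT and a log2 fold change of 1.02 ± 0.81. Birc5 (survivin) and Cdca8 (borealin), its partners, reached 4.56 and 4.91 times the WT mean in replicate 3. Birc5 had 2 reads in ACKR4_KO replicate 2.

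Among the genes of mitotic chromosomes, Mki67, which encodes the proliferation marker Ki-67, had 3.31, 4.61 and 38.8 CPM in ACKR4_KO against 8.87, 8.64 and 10.1 CPM in WT. Replicates 1 and 2 were below and replicate 3 above all WT libraries, whose values were within 1.16 times of each other. With all libraries the log2 fold change was 0.76 ± 0.93 (adjusted p = 0.848 by edgeR). Without replicate 3 it was -1.22 ± 0.24, with an adjusted p of 0.165, the smallest among the members in that fit. With limma-voom, which averages log values, the log2 fold change of Mki67 with all libraries was -0.12. Top2a, the topoisomerase that untangles DNA before division, had 3.96, 2.66 and 29.2 CPM in ACKR4_KO against 5.45, 6.28 and 5.03 CPM in WT, with the same arrangement, and fold changes of 1.11 ± 0.89 with and -0.73 ± 0.27 without replicate 3. Cenpe, a kinetochore motor, reached 4.45 times the WT mean in replicate 3.

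Cenpf, a kinetochore protein, was the only 1 of 35 tested members whose groups did not overlap, beside 14.2% of all genes tested. It had 11.9, 13.7 and 16.8 CPM in ACKR4_KO against 10.1, 8.23 and 5.79 CPM in WT, so that every knockout library was above every WT library. The log2 fold change was 0.81 ± 0.24 with an unadjusted p of 0.00772 by edgeR, and 7.45% of all genes tested had an unadjusted p under 0.05. The fold change did not pass the correction over all genes (adjusted p = 0.606 by edgeR). It was 0.68 ± 0.24 without ACKR4_KO replicate 3, and it lay between 0.62 and 1.02 with each library left out in turn. In ACKR4_KO replicates 1 and 2 Cenpf stood at 1.48 and 1.71 times the WT mean, beside medians of 0.647 and 0.483 times over the 26 mitotic members. Bub1, with few reads, was also above the WT mean in both, at 1.05 and 1.56 times. Kif11 was above it in replicate 1 (1.15 times), and Kif20a and Kif23 in replicate 2 (1.22 times each). In replicate 3 Cenpf was at 1.22 times the next library, the smallest such excess among the mitotic members.

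Spindle and cytokinesis genes again separated ACKR4_KO replicate 3. Tpx2, which activates aurora A on the spindle, had 1.78, 1.43 and 15.5 CPM in ACKR4_KO against 2.10, 3.70 and 3.44 CPM in WT and a log2 fold change of 1.03 ± 0.93. Kif11, the kinesin that pushes the spindle poles apart, had 2.18, 1.54 and 7.16 CPM in ACKR4_KO against 1.17, 2.37 and 2.13 CPM in WT, with replicates 1 and 2 inside the WT range, and its fold change was 0.95 ± 0.59 with all libraries and near 0 without replicate 3. Nusap1 and Hmmr, both microtubule-binding spindle proteins, were among the lowest of the members in replicates 1 and 2, at 0.293 and 0.159 times the WT mean for Nusap1 and 0.324 and 0.205 times for Hmmr. These ratios rest on 7 and 3 reads for Nusap1 and on 6 and 3 reads for Hmmr. Without replicate 3, which was left out for its high values in the members, the log2 fold changes of Nusap1 and Hmmr were -2.10 and -1.87. Their adjusted p was 0.241 and 0.291 by edgeR. Kif23, a kinesin of the central spindle, had 1.45, 2.87 and 10.0 CPM in ACKR4_KO against 2.02, 2.98 and 2.07 CPM in WT, and only replicate 3 was above the WT range, while replicate 2 was inside it. Anln (anillin), a scaffold of the cleavage furrow, had 4.12, 1.54 and 10.7 CPM in ACKR4_KO against 3.66, 5.04 and 5.23 CPM in WT. Its replicate 3 was 2.31 times the WT mean, and its log2 fold change was 0.24 ± 0.59. Prc1, which bundles midzone microtubules, and Kif20a, another midzone kinesin, reached 4.23 and 3.11 times the WT mean in replicate 3, with exons that share 911 bases with Rccd1 and 1271 bases with Cdc23 on the opposite strand.

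Other genes of the cell cycle were examined in 5 lists of textbook members, none of which held a gene past the test. In the list of further mitotic genes 37 of 50 were tested. Of the 37, 35 had a log2 fold change above 0 (52.0% of all genes tested), with a median of 0.42. Without ACKR4_KO replicate 3, where 51.1% of all genes tested were above 0, 31 of the 37 were below 0 (median -0.71). Their median over the WT mean was 0.551, 0.597 and 2.83 in ACKR4_KO replicates 1, 2 and 3, so that, as in the 26 members, replicates 1 and 2 were below and replicate 3 above 1. The smallest unadjusted p in that list, none past the test, belonged to Pttg1 (securin), Pimreg, Ncapd2 and Shcbp1, and Pimreg had 0.485, 1.13 and 5.32 CPM in ACKR4_KO against 0.622, 1.13 and 0.758 CPM in WT. Pttg1, which restrains the separation of sister chromatids, had 51.7, 70.3 and 63.8 CPM in ACKR4_KO against 51.6, 53.6 and 40.4 CPM in WT, with a log2 fold change of 0.35 with and 0.33 without replicate 3. Of 40 further replication genes 36 were tested, with 25 above 0 (52.0% of all genes tested) and a median of 0.16. Without replicate 3, where 51.1% of all genes tested were above 0, 27 were below 0, with a median of -0.18. In this list Gmnn (geminin, the inhibitor of origin licensing) had 28.1, 40.9 and 47.8 CPM in ACKR4_KO against 30.7, 27.8 and 25.8 CPM in WT, and Cdc7 (a kinase that fires origins) had 1.45, 1.74 and 2.88 CPM in ACKR4_KO against 1.09, 1.13 and 1.24 CPM in WT, with no overlap between the groups for Cdc7. Rpa1 (single-strand binding) and Pold2 (a polymerase delta subunit) had log2 fold changes of 0.20 and 0.37, and the groups did not overlap for Rpa1. Cdc7 and Rpa1 were the only 2 of the 36 genes without overlap, beside 14.2% of all genes tested.

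With all libraries, the lists of G1 cyclins and kinases, of pocket proteins, E2F factors and MuvB, and of CDK inhibitors had medians close to 0. Among the 9 cyclins and kinases of G1 4 had a log2 fold change above 0 and 5 below, with a median of -0.017, and the medians over the WT mean were 0.864, 0.927 and 1.06 in ACKR4_KO replicates 1, 2 and 3. Ccne2 (cyclin E2), Cdc25a (a CDK phosphatase), Ccnd2 (cyclin D2) and Cdk6 had the smallest p there, with log2 fold changes of 0.64, -0.26, -0.13 and 0.14. Of the 18 genes tested for pocket proteins, E2F factors and MuvB, 8 were above and 10 below 0 (median -0.020). E2f8 and E2f7, repressors that are themselves made late in the cycle, had 0.888, 1.13 and 4.19 CPM in ACKR4_KO against 1.17, 0.617 and 0.620 CPM in WT and 2.18, 2.25 and 6.55 CPM in ACKR4_KO against 2.80, 1.65 and 2.27 CPM in WT, each highest in replicate 3. Rbl2 (p130) and E2f5, which act in resting cells, had log2 fold changes of -0.24 and -0.32, and E2f5 did not overlap between the groups. The 7 CDK inhibitors had a median of -0.066, with 2 above and 5 below 0. Cdkn1a (p21) had 98.9, 172 and 49.9 CPM in ACKR4_KO against 60.6, 94.0 and 77.3 CPM in WT, which is lowest in ACKR4_KO replicate 3, the library with the highest mitotic sum, and highest in replicate 2, the library with the lowest. Cdkn1c (p57) had the same order of knockout libraries, with 21.9, 33.7 and 15.2 CPM in ACKR4_KO against 26.3, 36.6 and 31.0 CPM in WT. The WT libraries did not follow that order, since Cdkn1a and Cdkn1c were both lowest in WT replicate 1, which had the lowest mitotic sum in WT. A relation of these genes to the mitotic sum was not tested. Cdkn2b (p15), with 3.23, 1.43 and 3.75 CPM in ACKR4_KO against 3.89, 5.97 and 4.41 CPM in WT, did not overlap between the groups, while Cdkn2d (p19) was highest in ACKR4_KO replicate 3, with 13.5, 18.03 and 31.9 CPM in ACKR4_KO against 17.0, 16.9 and 12.3 CPM in WT and a log2 fold change of 0.46 with and 0.042 without that library. Replicate 3 was the highest library in 4 of the 9 G1 genes, 6 of the 18 genes of the E2F list and 2 of the 7 inhibitors, beside 23.8% of all genes tested. Without that library 7 of the 9, 10 of the 18 and 5 of the 7 were below 0, while 51.1% of all genes tested were above 0. The medians in that fit were -0.11, -0.050 and -0.078 in the same order of lists. The groups did not overlap in 1 of the 18 genes of the E2F list and in 1 of the 7 inhibitors, beside 14.2% of all genes tested. The difference between these lists and the 36 members was not tested.

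Markers of the cell types that a heart sample can hold were summed over 8 genes a type. The summed level of 8 fibroblast markers was 6073 to 11218 CPM in ACKR4_KO and 11538 to 12751 CPM in WT, so ACKR4_KO replicate 3, with 11218 CPM, was just below the WT libraries. Within this list, however, Postn (periostin, of activated fibroblasts) had 1012, 294 and 2303 CPM in ACKR4_KO against 1130.1, 1066 and 1379 CPM in WT, and Col1a1 had 1425, 472 and 2870.2 CPM in ACKR4_KO against 1549, 1836 and 1563 CPM in WT, both highest in ACKR4_KO replicate 3 and lowest in ACKR4_KO replicate 2. Col3a1 was lowest in replicate 2 too, with 3434, 1244 and 4052 CPM in ACKR4_KO against 3785, 4327 and 3853 CPM in WT. Tcf21, a factor of resident fibroblasts, was also highest in ACKR4_KO replicate 3, with 20.3, 11.8 and 32.0 CPM in ACKR4_KO against 26.8, 28.8 and 29.3 CPM in WT. The matrix gene Dcn and the actin-severing gene Gsn were lowest in replicate 3, with 1581, 1006 and 709 CPM in ACKR4_KO against 1523, 1709.7 and 1621 CPM in WT for Dcn and 2782, 2784 and 911 CPM in ACKR4_KO against 3024, 3229 and 3307 CPM in WT for Gsn. Pdgfra, a receptor of fibroblasts, and Lum, a matrix proteoglycan, were lowest in ACKR4_KO replicate 2, with 104, 62.6 and 68.1 CPM in ACKR4_KO against 99.4, 95.6 and 104 CPM in WT for Pdgfra and 359, 198 and 273 CPM in ACKR4_KO against 401, 459 and 464 CPM in WT for Lum. Macrophage markers summed to 703 to 991 CPM in ACKR4_KO and 837 to 1022 CPM in WT, with 975 CPM in replicate 3. Endothelial markers summed to 1995 to 2699 CPM in ACKR4_KO and 2613 to 2727 CPM in WT, with 2144 CPM in replicate 3. ACKR4_KO replicate 2, with the lowest mitotic sum, had the lowest fibroblast and macrophage sums of the 6 libraries, at 6073 and 703 CPM. It also had the highest cardiomyocyte sum, at 49858 CPM, and its endothelial sum of 2699 CPM lay within the WT range. The part of these cell types in the cell cycle values was not tested.

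Markers of tissues and cell types that a heart sample may carry along were examined in the same way, and their part in the cell cycle values was not tested either. The thymocyte genes Rag1, Rag2 and Dntt had 0 reads in all 6 libraries, where 3 reads, taken as the limit for a count of 0, correspond to 0.216 to 0.318 CPM, and the sum of that list, 93.2 to 123 CPM in ACKR4_KO and 106 to 119.9 CPM in WT, was nearly all Rmnd5a, which heart also expresses. The erythroid precursor genes Klf1, Rhag and Hemgn were at or under 0.233 CPM in every library. Tfrc, the transferrin receptor that many dividing cells make, had 76.6, 108 and 109 CPM in ACKR4_KO against 102, 51.2 and 73.9 CPM in WT, and Epor, the erythropoietin receptor, had 2.18, 1.95 and 4.80 CPM in ACKR4_KO against 1.48, 2.37 and 2.75 CPM in WT, both highest in ACKR4_KO replicate 3. Alas2, of heme synthesis in red cells, had 7.75, 28.0 and 4.02 CPM in ACKR4_KO against 15.5, 14.1 and 13.2 CPM in WT and was lowest there. Markers of T and NK cells summed to 5.43 to 6.81 CPM in ACKR4_KO and 11.0 to 17.7 CPM in WT, those of neutrophils to 20.4 to 44.5 CPM and 32.1 to 43.2 CPM, and those of B and plasma cells to 27.4 to 307 CPM and 72.2 to 126.4 CPM, in the same order of groups. In these 3 lists replicate 3 was at 6.81, 20.4 and 36.1 CPM, below every WT library. For T and NK cells all ACKR4_KO libraries were below every WT library, and for B and plasma cells replicate 2 (27.4 CPM) was as well. Of the neutrophil sum in replicate 3, 10.4 CPM came from Lcn2, which was highest in that library, whereas S100a8 and S100a9 were lowest there. Lung epithelium summed to 0.404 to 1.92 CPM in ACKR4_KO and 40.0 to 249 CPM in WT, and its genes Sftpc, Sftpd, Slc34a2 and Scgb1a1 had 0 reads in all ACKR4_KO libraries. Fast skeletal muscle markers summed to 193 to 1048 CPM in ACKR4_KO and 697 to 867 CPM in WT, with 1043 of the 1048 CPM in replicate 3 from Acta1, which the stressed heart also makes. The other genes of that list were highest in WT replicates 2 and 3. Mylpf had 1.21, 2.77 and 0.524 CPM in ACKR4_KO against 1.71, 26.7 and 35.5 CPM in WT, and Myh1 had 0.00, 1.33 and 0.00 CPM in ACKR4_KO against 0.00, 19.3 and 28.9 CPM in WT. Tnnc2, the gene that overlaps Ube2c, had 0 reads in all 6 libraries. The strand setting of the counting is not given, so this 0 does not show that Tnnc2 was absent. Mesothelium summed to 17.3 to 86.3 CPM in ACKR4_KO and 24.8 to 63.3 CPM in WT, lowest in replicate 3.

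**Figure D4:**
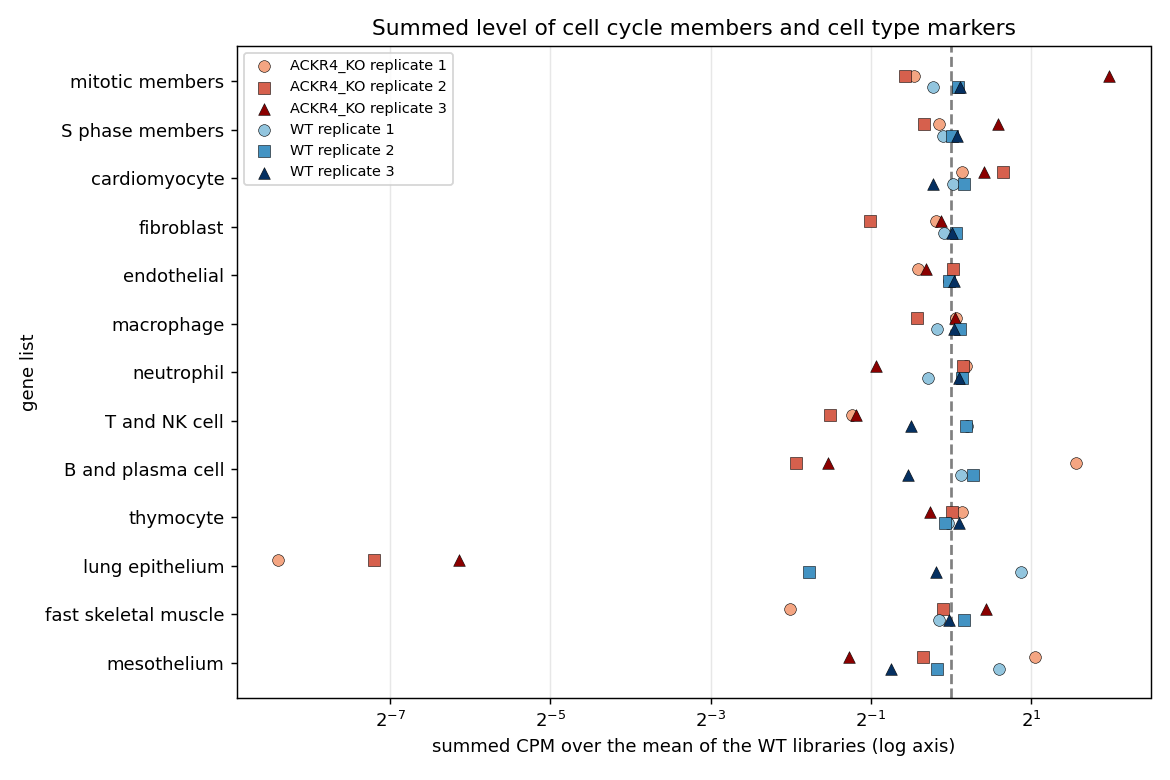
Summed CPM of the mitotic members, the S phase members and 11 lists of cell type markers in each library, divided by the mean of the WT libraries (log axis). For the mitotic members ACKR4_KO replicate 3 lies at 3.93 times the WT mean. For the fibroblast, macrophage and endothelial lists it lies between 0.807 and 1.03 times. For the other marker lists it ranges from 0.0141 times (lung epithelium) to 1.35 times (fast skeletal muscle).

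Outside the members, the genes whose log2 CPM followed the mean profile of the members most closely over the 6 libraries were Lgals1, Cetn3, Wdr13, Bad and Nid2, with Pearson correlations between 0.992 and 0.996. These are descriptions over 6 libraries that share 1 extreme library, and 385 of 14371 other genes had a correlation above 0.9. Lgals1 (galectin-1) had 244, 232 and 480.5 CPM in ACKR4_KO against 250.0, 288 and 293 CPM in WT, and Nid2 (nidogen-2, a basement membrane protein) had 37.2, 34.0 and 70.4 CPM in ACKR4_KO against 37.6, 46.9 and 45.0 CPM in WT. Cetn3 is a centrin of the centrosome, and its values spanned a narrower range, with 30.0, 29.9 and 41.0 CPM in ACKR4_KO against 31.2, 32.6 and 33.1 CPM in WT. Of the 107 tested genes of the 5 cell cycle lists 28 (26.2%) had a correlation above 0.9, beside 2.68% of all 14371 genes outside the members, these lists included.

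Some rows could gain reads of other genes or lose reads in bases shared with them. Exons of 9 members share bases with a gene on the opposite strand and those of 3 members with a gene on the same strand. Pseudogenes named after Pcna, Tyms, Ccnb1 and Ccnb2 are in the table. Ccnb2-ps had 19, 21 and 18 reads in ACKR4_KO and 21, 21 and 26 reads in WT, which did not follow Ccnb2 itself, at 17, 10 and 96 reads in ACKR4_KO and 21, 18 and 27 reads in WT. Ccnb1-ps had at most 10 reads in a library.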

How the data were processed

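RNA-seq libraries of mouse heart, 3 ACKR4_KO and 3 WT, were analysed. The deposited values are whole-number counts of reads per Ensembl gene. CASAVA 1.8.2, HISAT2, HTSeq 0.6.0 and the build mm10 are named, per the submitters' processing notes; no source used here gives the strand setting of the counting. Groups come from the labels.

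Counts were scaled by TMM (factors 0.891 to 1.05) and filtered with filterByExpr (minimum count 10, minimum total 15), which left 14406 genes. ACKR4_KO was compared with WT by edgeR 4.0.16 (R 4.3.3), with the robust quasi-likelihood test, two-sided, with p-values adjusted by Benjamini-Hochberg across the 14406 genes and called at 0.05. The standard error is the fold change over the square root of F. The script was tested on simulated data. CPM use TMM-scaled library sizes, and CPM per kilobase uses the exonic length in GENCODE M21. Profile correlations use log2 CPM with a prior count of 2. The alternatives tried were DESeq2 1.42.0, limma-voom (limma 3.58.1), scaling by RLE or by upper quartiles, no filter, a filter that asks for a mean of 2 CPM and 1 CPM in 3 libraries, no robust estimation, removal of mitochondrial and hemoglobin genes, a replicate block, and each library left out.

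Members given per library are Mki67, Top2a, Pcna and, in each role, the gene with the highest level per kilobase and the gene with the smallest p; Rrm2, Ccna2, Ccnb1, Bub1, Ube2c, Nusap1 and Hmmr were singled out after their values were seen. Each pathway list names the 4 genes with the smallest p. The members and lists were chosen with earlier results of these data known. Whether same-numbered replicates pair was checked by the correlation of their deviations from the group means (0.067, 0.053 and 0.13 for numbers 1, 2 and 3), and they were not treated as pairs. Intervals cover counting error only. The summed level of 1 marker list is not reported here.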

Additional observations from a re-analysis of the deposited data

How the results depend on the processing

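No member passed the adjusted threshold under any alternative run, though Mki67 had no adjusted p with DESeq2. The count of genes past it over the whole table was 0 in the main analysis, 39 with DESeq2, 24 with no filter, 6 with the replicate block and 0 to 1 with a library left out. Ackr4 passed with DESeq2 (-4.72), with no filter (-4.70) and without ACKR4_KO replicate 3, and its log2 fold change was -5.82 to -4.28 with a library left out. The median log2 fold change was -0.63 to 1.11 over the members, -0.27 to 0.27 over the S phase members and -0.77 to 1.29 over the mitotic members with a library left out, the lowest value each time without ACKR4_KO replicate 3. Members above 0 numbered 2 to 34 with a library left out, 24 with limma-voom (median 0.18) and 25 with the replicate block (median 0.30). That count was added after the data were seen.

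With limma-voom 8 of 35 members turned from above to below 0, and with the replicate block 7. Among the genes given per library by the naming rule these were Anln (-0.10 and -0.018) and Mki67 (-0.12 and -0.013), in each case with limma-voom first and the block second; the cause was not tested. With a library left out the log2 fold changes spanned 0 for Anln (-0.68 to 0.68), Mki67 (-1.22 to 1.25), Aurkb (-0.64 to 1.52), Bub1b (-0.24 to 1.41), Ccnb2 (-0.55 to 1.44), Cdc20 (-0.58 to 1.24), Foxm1 (-0.15 to 1.32), Kif23 (-0.13 to 1.47), Top2a (-0.73 to 1.57), Tpx2 (-0.92 to 1.49), Mcm5 (-0.23 to 0.73), Pcna (-0.062 to 0.31), Rrm1 (-0.13 to 0.22), Cdk6 (-0.059 to 0.25), E2f7 (-0.022 to 0.97) and Pimreg (-0.059 to 1.97), all below 0 without ACKR4_KO replicate 3. Mcm6 (-0.30 to 0.12) turned without ACKR4_KO replicate 2 or WT replicate 3, and Cdkn1a (-0.048 to 0.81) without ACKR4_KO replicate 2. With the replicate block, not every library correlated best with its own number. DESeq2 left 12 genes without an adjusted p, and 1 of them, Mki67, was a member. Several mitotic members had fewer than 10 reads in a library, where small differences were not detectable.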
